A study of Rattus norvegicus with 60 samples.

Results

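The genes described here form 2 linked groups that act in the entry of neutrophils into the lung: 4 chemokine genes (Cxcl1, Cxcl2, Cxcl3 and Cxcl6) and 6 genes that neutrophils express (Cxcr2, S100a8, S100a9, Il1r2, Csf3r and Mmp8). They were taken by their symbols from a table of raw gene counts, which held all 10 among its 30045 rows, and all 10 passed the low-count filter that left 15995 genes for testing. Male Fischer 344 rats, 3 months old at purchase, inhaled either clean air or MWCNT (multi-walled carbon nanotubes, fibrous particles of rolled carbon sheets) in whole-body chambers for 6 hours a day over 3 days. Lung tissue was taken 1 day after exposure ended. There were 5 exposure runs, named 180, 090, 045, 022 and 011 after a cumulative MWCNT dose that doubled from 11.25 through 22.5, 45 and 90 to 180 mg/m3, and each run had its own rats in air. Groups are named by treatment and run, so MWCNT_180 is the exposed group of run 180 and air_180 its control. The 60 libraries stood for 6 rats in each of 10 groups, and the 7 libraries that the labels mark as outliers were left out. Of the 53 libraries kept, air_045 held 3, MWCNT_090 held 4, and MWCNT_180 and MWCNT_011 held 5 each. The remaining groups kept all 6. A piece of whole lung was sequenced, so each value mixes the RNA of all lung cells, and more cells of a type and more RNA per cell cannot be told apart. Each dose was given in a single run, so dose and run cannot be told apart either.

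The chemokines made by Cxcl1, Cxcl2, Cxcl3 and Cxcl6 are small secreted proteins that bind the receptor CXCR2 on neutrophils and guide these cells out of the blood. In injured lung they are made by epithelial cells, macrophages and stromal cells, and their transcription is switched on by NF-kB, a factor that answers interleukin-1, tumour necrosis factor and microbial signals. Of the neutrophil genes, Cxcr2 encodes the receptor for these ligands. S100a8 and S100a9 encode the subunits of calprotectin, an abundant protein of neutrophil cytosol that monocytes make too. Il1r2 encodes a decoy receptor that binds interleukin-1 without signalling, Csf3r the receptor for the growth factor G-CSF, and Mmp8 the neutrophil collagenase.

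Promoter sequences from RefSeq (build GRCr8) were at hand for 7 of the 10 genes, namely Cxcl1, Cxcl2, Cxcl6, Cxcr2, S100a9, Csf3r and Mmp8. The build of the count table is unknown here (not given in the sources used here), and these windows are not matched to it. The 200 bases before the annotated start of 3 chemokine genes are shown because they share a match to the NF-kB consensus. All 3 lie on the minus strand of chromosome 14, at chr14:17479322-17479521 for Cxcl1, chr14:17467256-17467455 for Cxcl2 and chr14:17596418-17596617 for Cxcl6. They are written 5′ to 3′ along the gene, with the match in capitals.
Cxcl1: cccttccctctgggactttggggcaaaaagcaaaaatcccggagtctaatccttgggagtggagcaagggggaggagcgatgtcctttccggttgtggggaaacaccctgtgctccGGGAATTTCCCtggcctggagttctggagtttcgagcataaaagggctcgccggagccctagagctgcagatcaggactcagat
Cxcl2: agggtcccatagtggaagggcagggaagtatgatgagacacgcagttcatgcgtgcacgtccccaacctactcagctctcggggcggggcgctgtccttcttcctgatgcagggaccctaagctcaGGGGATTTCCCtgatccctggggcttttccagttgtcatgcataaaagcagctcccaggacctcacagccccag
Cxcl6: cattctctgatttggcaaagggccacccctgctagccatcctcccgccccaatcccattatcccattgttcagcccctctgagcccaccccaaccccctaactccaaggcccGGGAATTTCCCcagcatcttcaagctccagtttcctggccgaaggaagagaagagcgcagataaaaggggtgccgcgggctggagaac

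The match lay between bases -84 and -74 from the start in Cxcl1, between -74 and -64 in Cxcl2 and between -88 and -78 in Cxcl6. The consensus was searched as a pattern of 10 letters on both strands, and overlapping matches were joined. Windows of the same length held at least 1 match in 959 of 33469 RefSeq promoters (2.87%). Of the 4 neutrophil gene windows, 0 held one, which is the usual case at that share. The letters TATAAA, the usual TATA box, stood at bases -42 to -37 in S100a9 and, on the reverse strand, at -30 to -25 in Mmp8, against 10.39% of all windows. The core of a C/EBP site (TTGCNNAA), read by factors of myeloid cells, occurred at 2 places in Mmp8 and at 1 in Cxcl6, against 7.16% of all windows. Cxcr2 and Csf3r held none of the 3 motifs. These are matches of letters in 1 reference genome, with no measurement of binding.

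**Figure D1:**
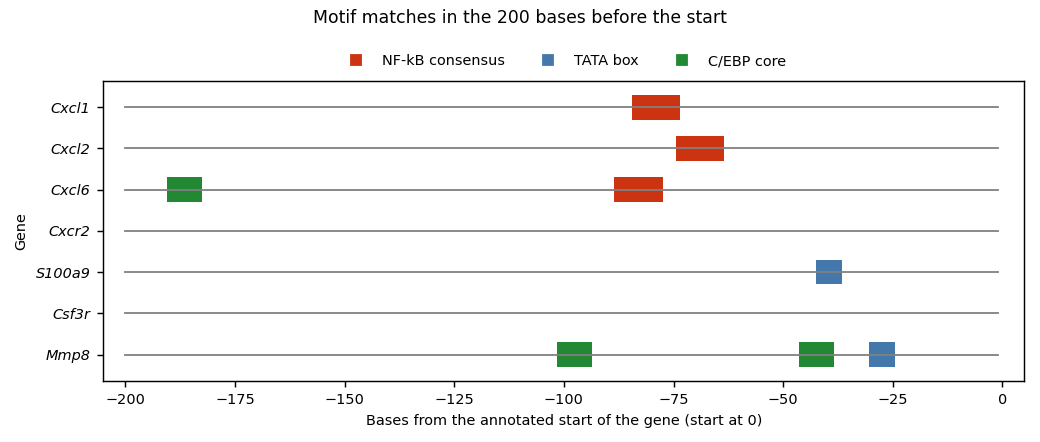
Places of 3 sequence motifs in the 200 bases before the annotated start of 7 genes (x axis, bases from the start; boxes, matches on either strand; grey lines, the windows searched). The 3 chemokine genes each have an NF-kB consensus match between bases -88 and -64. The 4 neutrophil genes have none, like most promoters, since 2.87% of all windows held a match.

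The 53 libraries held 8099154 to 16176867 counts each (median 11221335). Lung marker genes, among them surfactant and club cell genes, took 2.48% to 3.99% of the counts in these libraries, and 12 liver marker genes took at most 0.0508%. In 3 of the libraries labelled as outliers, air_045 replicate 5 and MWCNT_090 replicates 5 and 6, liver markers took 21.3% to 24.5% and lung markers at most 0.0367%. No 2 libraries of a group agreed within sampling noise. Levels are CPM, the counts of a gene per 1000000 counts of the library, and SD is their standard deviation between rats. Gene lengths are not in the table, so levels are not compared between genes. Fold changes and adjusted p-values are from edgeR's quasi-likelihood test across all genes, and a gene is said to rise or fall only at an adjusted p under 0.05. Overlap of air and exposed rats is given as a description of the values. How many of all genes lay fully apart in a run was not counted.

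In run 180, all 10 genes rose. The median log2 fold change was 0.98 over the 10 and -0.01 over all genes tested, of which 12% rose and 10.9% fell. In run 090, 8 of the 10 rose, with a median of 0.61, while 6.82% of all genes rose and 4.28% fell. In run 022, 5 rose with a median of 0.54, while 5.18% of all genes rose and 1.62% fell. In run 045, where 3 air libraries were left, 4 rose with a median of 0.49, while 3.32% of all genes rose and 2.09% fell. In run 011, 0 of the 10 rose or fell by edgeR's test (median 0.18), while 0.025% of all genes rose and 0% fell by that test. Limma voom and DESeq2 also called 0 of the 10 there, and their shares over all genes are not given here. At an unadjusted p under 0.05, run 011 had 390 genes up and 278 down, by edgeR's test, and 3 of the 10 were among those up, namely Cxcl1, Cxcl2 and Il1r2 (adjusted p = 1 for each). No member fell in any run. The 4 that rose in all of runs 180, 090, 045 and 022 were Cxcl1, Cxcl2, Cxcl6 and Il1r2. The share of all genes called in run 022 moved most with 1 library: 1087 genes were called with all libraries and 2919 without air_022 replicate 2. In run 045 it fell from 865 genes to 553, 423 and 377 without air_045 replicates 1, 2 and 4.

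**Figure D2:**
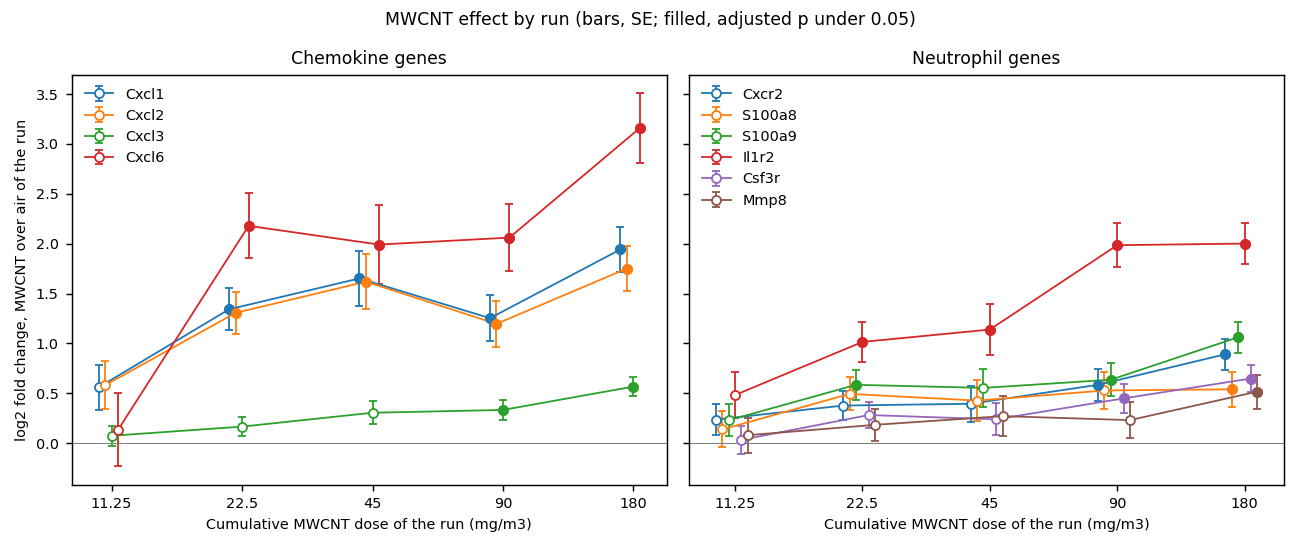
Log2 fold change of MWCNT over air (y axis) in each run, placed by its cumulative dose (x axis, mg/m3, doubling steps), for the 4 chemokine genes (left) and the 6 neutrophil genes (right). Bars are standard errors and filled points have an adjusted p under 0.05. Cxcl6 reaches 3.16 and Il1r2 2.0 in run 180, and no point is filled in run 011.

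Cxcl1, a chief chemokine for rat neutrophils, rose in 4 runs. In run 180 the air rats had 13.7, 16.7 and 20.5 CPM (lowest, median and highest), and the 5 exposed rats had 59.3, 65.9, 66.3, 68.8 and 66.2 CPM. Every exposed rat lay above every air rat, and the rise was 3.84-fold (log2 1.94, standard error (SE) 0.22, adjusted p = 2.7e-09). The exposed rats of run 090 had 46.1, 53.9, 56.7 and 46.8 CPM against 14.4 to 26.3 in air, again without overlap (2.38-fold, adjusted p = 1e-04). In run 045 the 6 exposed rats spread from 33.1 to 82 CPM with a median of 52.7, and the air rats had 19.1, 18.0 and 14.4 CPM (3.14-fold, adjusted p = 6.7e-05). Run 022 had a like spread, from 32.3 to 76.5 CPM with a median of 46.4, over air rats at 11.1 to 29.3 CPM (2.54-fold, adjusted p = 1.2e-05). The exposed groups of these 2 runs were therefore the widest for this gene, with SDs of 18.9 and 19.4 CPM against 3.57 in MWCNT_180. In run 011 the exposed rats had 20.8, 28.2, 30.3, 23.1 and 28.8 CPM, and 4 of 5 lay above the highest air rat at 20.9 CPM (1.47-fold, adjusted p = 1).

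Cxcl2, which encodes the chemokine also called MIP-2, moved by similar folds at low counts of 17 to 187 reads per library. In run 180 air rats had 1.81, 2.12 and 3.55 CPM (lowest, median and highest) and exposed rats 9.38, 10.1, 7.56, 6.49 and 6.25 CPM. The groups did not overlap, and the rise was 3.37-fold (log2 1.75, SE 0.23, adjusted p = 4.4e-08). Exposed and air rats also lay fully apart in runs 090 (7.93, 8.1, 8.42 and 8.56 CPM against 2.45 to 4.39), 045 (4.76 to 10.7 against 2.41, 3.14 and 1.5) and 022 (5.65 to 13.4 against 1.79 to 4.36). The folds in these 3 runs were 2.29, 3.07 and 2.47, with adjusted p of 0.00016, 9.2e-05 and 1.1e-05. In run 011 all 5 exposed rats, at 3.55, 3.64, 3.73, 4.36 and 3.21 CPM, lay above the highest air rat at 3.13 CPM. The 1.5-fold difference did not pass (adjusted p = 1).

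Cxcl6 had the highest fold of the 10 genes in run 180. Air rats had 0.814, 1.63 and 2.95 CPM (lowest, median and highest), which is 8 to 33 reads. The exposed rats had 12.3, 19.7, 16.9, 14.7 and 16.2 CPM, all above the air rats, for an 8.94-fold rise (log2 3.16, SE 0.35, adjusted p = 9.3e-10). Run 090 had 12.7, 12.6, 17.6 and 12.4 CPM in exposed rats against 0.832 to 6.26 in air (4.17-fold, adjusted p = 1.3e-05). In run 045 exposed rats had 9.37 to 18.3 CPM and air rats 3.58, 3.65 and 2.03 CPM (3.97-fold, adjusted p = 0.001). In run 022 they spread from 4.27 to 18.4 CPM, 5 of 6 above the highest air rat at 4.44 CPM (4.53-fold, adjusted p = 4e-06). In run 011 the groups overlapped, with 2.75, 3.09, 5.06, 4.27 and 3.39 CPM in exposed rats and 1.94 to 5.71 CPM in air. The difference there was 0.13 on the log2 scale (95% interval -0.58 to 0.85), and it turned to -0.01 without MWCNT_011 replicate 4.

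The row labelled Cxcl3 behaved unlike the other 3. It held 7509 to 19456 reads in every lung library, and air rats had 636 to 1143 CPM with a median of 888. In run 180 air rats had 754, 847 and 1068 CPM (lowest, median and highest) and exposed rats 1234 to 1419 with a median of 1277. The groups did not overlap, yet the rise was 1.48-fold (log2 0.57, SE 0.10, adjusted p = 1.1e-05). In run 090 it rose 1.26-fold (adjusted p = 0.027), a call lost without MWCNT_090 replicate 2 (0.13) or 3 (0.077) or air_090 replicate 2 (0.053), 5 (0.084) or 6 (0.068). The log2 differences in runs 045, 022 and 011 were 0.31, 0.17 and 0.07 and did not pass (adjusted p of 0.12, 0.32 and 1). In the RefSeq order of genes, Cxcl2, Cxcl1, Cxcl3, Pf4 and Ppbp lie in 1 cluster. Between Cxcl1 and Cxcl3 stands a protein-coding gene with only a locus name, LOC134481726, that has no row in the count table. These chemokine genes are related in sequence, and whether reads of 1 gene were counted for another was not tested. Neither labels nor file headers name the annotation behind the count table, and the row is therefore called by its label. Without it, the genes that rose were 9 of 9 in run 180, 7 in run 090, 4 in run 045 and 5 in run 022, and 7 of 9 slopes passed.

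**Figure D3:**
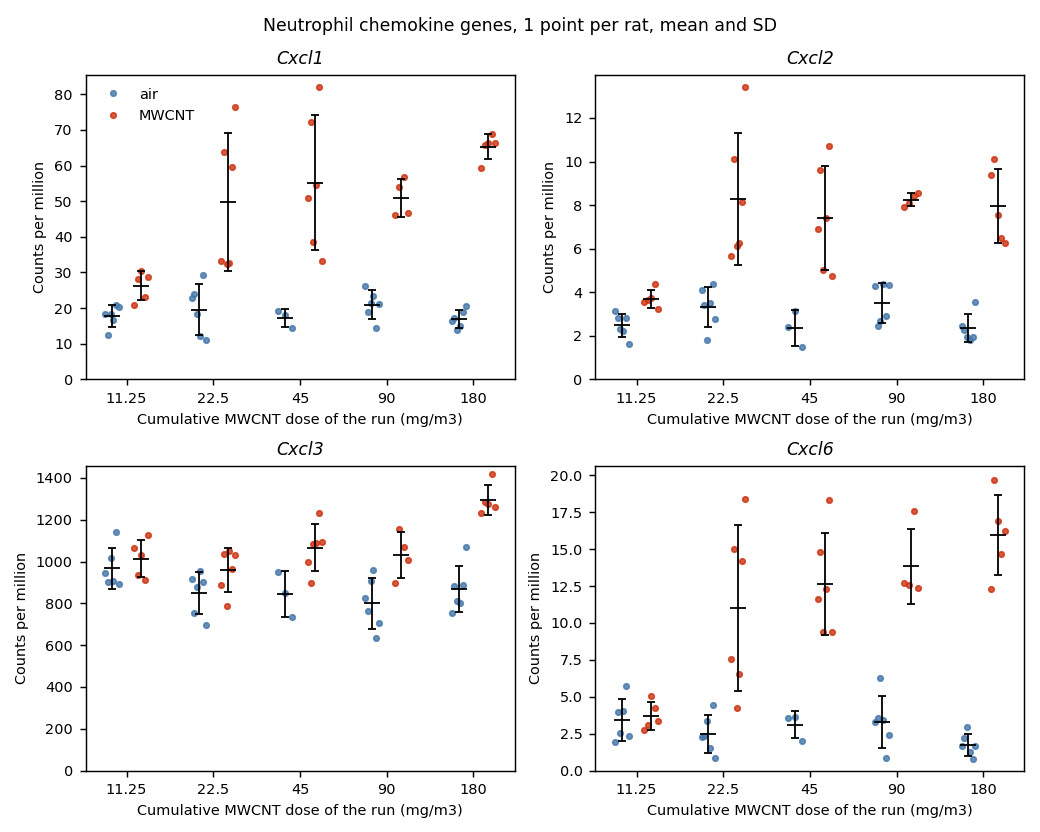
CPM (y axis, linear, from 0) of the 4 chemokine genes in each rat, by the cumulative dose of the run (x axis, mg/m3), air in blue and MWCNT in red, with mean and SD in black. For Cxcl1 and Cxcl2 the red points of the 4 higher runs lie above all blue points of their run, and Cxcl3 stays between 636 and 1419 CPM throughout.

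Among the neutrophil genes, Il1r2, the interleukin-1 decoy receptor, had the largest fold changes. In run 180 air rats had 2.21, 2.39 and 3.66 CPM (lowest, median and highest) and exposed rats 13.1, 9.26, 13.8, 9.84 and 8.77 CPM, a rise of 4-fold (log2 2.0, SE 0.20, adjusted p = 6e-11). Run 090 showed about the same rise, with 7.84, 7.46, 9.54 and 9.59 CPM over 1.45 to 3.41 in air (log2 1.99, SE 0.22, adjusted p = 2.2e-09). In runs 045 and 022 the rises were 2.2-fold and 2.02-fold (adjusted p of 0.0032 and 0.00043). In those 2 runs exposed rats lay at 4.33 to 6.53 and 4.17 to 6.53 CPM, again above every air rat. In run 011 exposed rats had 1.61, 4.42, 3.34, 2.76 and 2.66 CPM, and 1 of 5 lay above the highest air rat at 3.55 CPM (1.4-fold, adjusted p = 1).

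Cxcr2, the receptor for the chemokines above, rose 1.86-fold in run 180 (log2 0.89, SE 0.15, adjusted p = 1.2e-05). Air rats there had 8.16, 9.68 and 13.7 CPM (lowest, median and highest), and exposed rats had 23.3, 16.9, 22.2, 19.2 and 17.2 CPM, without overlap. In run 090 it rose 1.5-fold (adjusted p = 0.011), with exposed rats at 20.0, 17, 15.7 and 14.2 CPM above air rats at 7.86 to 13. Without MWCNT_090 replicate 1, the highest, the adjusted p was 0.065. The differences of runs 045 (1.31-fold) and 022 (1.3-fold) did not pass (adjusted p of 0.22 and 0.12), with intervals on the log2 scale of 0.04 to 0.75 and 0.09 to 0.67. Csf3r, the G-CSF receptor, moved less: 1.57-fold in run 180 (log2 0.65, SE 0.14, adjusted p = 0.00027), from 29, 32.5 and 43.4 CPM in air (lowest, median and highest) to 66.6, 54.2, 60.6, 48.6 and 48.5 CPM, without overlap. In run 090 it rose 1.36-fold (adjusted p = 0.033), and leaving out any 1 of 6 of the run's 10 libraries ended that call. The adjusted p was then 0.057, 0.077, 0.08 and 0.074 without air_090 replicates 2, 3, 4 and 6, and 0.2 and 0.056 without MWCNT_090 replicates 1 and 3. In runs 045, 022 and 011 the Csf3r differences were 0.24, 0.28 and 0.03 on the log2 scale and did not pass. The last turned negative without air_011 replicate 5 or 6 or MWCNT_011 replicate 4, to -0.07 at the lowest.

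S100a9 rose 2.09-fold in run 180 (log2 1.06, SE 0.16, adjusted p = 7.5e-07). Air rats had 56.1, 67.2 and 97.9 CPM (lowest, median and highest), and exposed rats had 161.99, 156.84, 145.53, 126.44 and 138.97 CPM, without overlap. It rose 1.55-fold in run 090 (adjusted p = 0.0071) and 1.5-fold in run 022 (adjusted p = 0.0096). The second of these rested in part on MWCNT_022 replicate 5 at 146.8 CPM, without which the log2 difference was 0.40 and the adjusted p 0.093. In run 045 all 6 exposed rats, at 79.8 to 104 CPM, lay above the air rats at 57.9, 60.7 and 62.1 CPM, and the 1.47-fold difference did not pass (adjusted p = 0.074). S100a8 encodes its partner subunit. In run 180 it rose 1.45-fold (log2 0.54, SE 0.17, adjusted p = 0.019), from 22.5, 26.7 and 44.4 CPM in air (lowest, median and highest) to 50.5, 48.4, 46.8, 33.9 and 36.0 CPM. The groups overlapped, since 3 of 5 exposed rats lay above the highest air rat. That call was lost without air_180 replicate 4 (adjusted p = 0.052) or 5 (0.054) or MWCNT_180 replicate 2 (0.062) or 3 (0.052). The differences of S100a8 in runs 090, 045, 022 and 011 were 0.53, 0.43, 0.49 and 0.14 on the log2 scale, with adjusted p of 0.054, 0.25, 0.06 and 1. In run 045 all 6 exposed rats, at 37.3 to 41.9 CPM, lay above the air rats at 31.9, 27.2 and 27 CPM. The separations of S100a9 and S100a8 in run 045 rest on 3 air rats, and how many of all genes lay apart likewise was not counted. In run 090 it passed without air_090 replicate 5 (adjusted p = 0.014), and in run 022 without air_022 replicate 2 (0.0055) or MWCNT_022 replicate 2 (0.031) or 4 (0.037).

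Mmp8, the neutrophil collagenase, rose in run 180 alone among the 5 tests. The rise there was 1.43-fold (log2 0.52, SE 0.17, adjusted p = 0.021). Air rats had 3.74, 6.79 and 9.29 CPM (lowest, median and highest) and exposed rats 10.2, 9.36, 10, 10.7 and 9.88 CPM, so the groups lay next to each other without overlapping. Without air_180 replicate 6 the adjusted p was 0.077, and without MWCNT_180 replicate 5 it was 0.05. In the other 4 runs the log2 differences were 0.23, 0.27, 0.18 and 0.08, and air and exposed rats overlapped in each. The last was -0.04 without air_011 replicate 3.

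**Figure D4:**
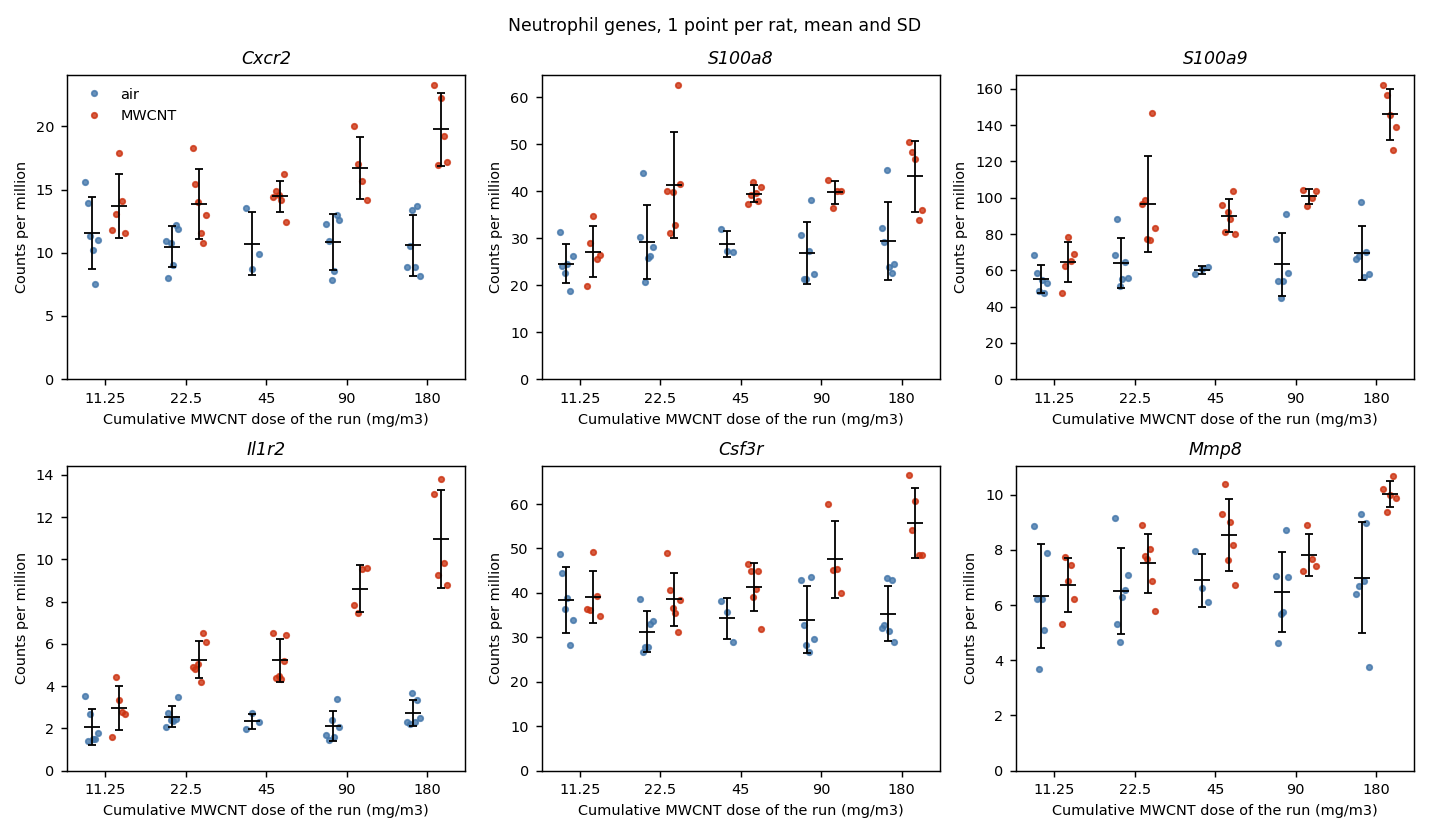
CPM (y axis, linear, from 0) of the 6 neutrophil genes in each rat, by the cumulative dose of the run (x axis, mg/m3), air in blue and MWCNT in red, with mean and SD in black. Il1r2 climbs from 2.96 CPM in MWCNT_011 to 10.9 in MWCNT_180 on average, while Mmp8 overlaps with air in every run but 180.

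The change of the MWCNT effect with dose was tested as a slope per doubling of dose over the 5 runs. Of the 10 genes, 8 had a positive slope that passed, against 5.58% of all genes, and 0 a negative one, against 5.07%. Cxcl6 had the steepest slope, 0.59 on the log2 scale per doubling (SE 0.11, adjusted p = 0.00022), followed by Il1r2 at 0.40 (SE 0.07, adjusted p = 4.5e-05) and Cxcl1 at 0.27 (SE 0.07, adjusted p = 0.0095). The slopes of Cxcl2 (0.22), S100a9 (0.17), Cxcr2 (0.15), Csf3r (0.14) and Cxcl3 (0.12) also passed. Those of Mmp8 (0.09, adjusted p = 0.33) and S100a8 (0.08, adjusted p = 0.4) did not. The slopes of Cxcl2 and Cxcr2 were close to the threshold: they lost the call without 23 and 10 of the 53 libraries taken in turn, with an adjusted p of at most 0.081 and 0.072. On a linear dose scale the slope of Cxcl2 did not pass (adjusted p = 0.11), and with no low-count filter neither did Cxcl2 (0.062) or Cxcr2 (0.051). Csf3r lost it without air_011 replicate 1 (0.054) or MWCNT_180 replicate 2 (0.057), and the count of slopes that passed was 5 without either of these. The slopes rested on the runs at both ends. Over the 4 runs left without run 011, 1 slope passed, that of Il1r2, and without run 180, 2 passed, those of Cxcl6 and Il1r2.

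Any difference of the effect among the 5 runs, of whatever shape, passed for 3 of the 10 genes, against 4.92% of all genes. These were Cxcl6 (adjusted p = 0.0012), Il1r2 (adjusted p = 0.0013) and Cxcl1 (adjusted p = 0.04). The values of Cxcl6 were 0.13 on the log2 scale in run 011, between 1.99 and 2.18 in runs 022, 045 and 090, and 3.16 in run 180. Il1r2 had a different order of values: 0.48 in run 011, 1.01 and 1.14 in runs 022 and 045, and 1.99 and 2.0 in runs 090 and 180. Cxcl1 ran from 0.56 in run 011 to 1.34, 1.65, 1.25 and 1.94 in runs 022, 045, 090 and 180, and its call was lost without any 1 of 18 of the 53 libraries (adjusted p of 0.051 to 0.087). The other 7 genes had adjusted p-values of 0.12 to 0.82. For S100a9 the difference passed without air_180 replicate 3 (0.049) or MWCNT_022 replicate 5 (0.044), and for Cxcl3 without air_180 replicate 6 (0.033).

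Levels in air were compared across the runs in the same model. Of the 10 genes, 0 differed among the 5 air groups by edgeR's test, against 7.11% of all genes by the same test. Limma voom also called 0 of the 10, and its share over all genes is not given here. The 27 air rats had a median of 18.4 CPM of Cxcl1, with group means from 16.9 to 20.9, and a median of 10.9 CPM of Cxcr2, with group means from 10.5 to 11.6. At an unadjusted p under 0.05, 1 of the 10 differed by edgeR's test, against 3935 of the 15995 genes tested. This was Cxcl2 (adjusted p = 0.17), whose air means ran from 2.33 CPM in run 180 to 3.51 in run 090. Cxcl6 air means ran from 1.75 CPM in run 180 to 3.41 in run 011 (adjusted p = 0.32), so its lowest baseline stood in the run with its highest fold.

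Rats of 1 group also differed from each other, and the genes were compared by how these deviations went together over the 53 libraries. Each value was taken as log2 of CPM plus 0.5, less the mean of its own group, so that differences between group means do not enter. The spread of the groups was not equalised, and groups with a wider spread weigh more. For Cxcl1 the SD was 18.9 and 19.4 CPM in MWCNT_045 and MWCNT_022 against 3.57 in MWCNT_180. Of the 45 pairs of genes, 12 had a correlation that passed a permutation test within groups after adjustment over the 45. None of the 12 joined a chemokine gene with a neutrophil gene. Among the 24 such pairs Pearson's r had a median of -0.07 and ran from -0.35 to 0.20. The row labelled Cxcl3 was negative with all 6 neutrophil genes, from -0.26 with Il1r2 to -0.35 with S100a8, where the adjusted permutation p was 0.072. Of the 6 pairs of chemokine genes, 4 passed. Cxcl1 with Cxcl6 had r = 0.64 (Spearman's rho 0.55, adjusted permutation p = 0.00045) and Cxcl1 with Cxcl2 had r = 0.61 (rho 0.57, adjusted permutation p = 0.0026). Cxcl3 with Cxcl6 had r = 0.46 and Cxcl1 with Cxcl3 r = 0.40 (adjusted permutation p of 0.017 and 0.035).

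Of the 15 pairs of neutrophil genes, 8 passed, and all 15 had r above 0. The closest were Cxcr2 with Csf3r (r = 0.84, rho 0.82) and S100a8 with S100a9 (r = 0.82, rho 0.65). The permutation p of both was 1e-05, the smallest that 100000 permutations can give, and 0.00022 after adjustment. Csf3r with Mmp8 followed at r = 0.58 and Cxcr2 with Mmp8 at r = 0.55 (adjusted permutation p of 0.0011 and 0.0027). The pair S100a8 and Cxcr2, from the 2 closest couples, had r = 0.22 (adjusted permutation p = 0.27). Il1r2 did not pass with Cxcr2 (r = 0.28), Csf3r (r = 0.25) or Mmp8 (r = 0.22). It passed with S100a8 (r = 0.47, rho 0.32) and S100a9 (r = 0.43, rho 0.33). By rank, 4 of the 12 pairs did not pass: these 2, S100a9 with Mmp8 (r = 0.41, rho 0.33) and Cxcl3 with Cxcl6 (rho 0.34), each with an adjusted permutation p of 0.096 for rho, and no pair of a chemokine with a neutrophil gene passed by rank. Cxcl2 with Cxcl6 (rho 0.44) and Cxcr2 with S100a9 (rho 0.41) passed by rank alone, with adjusted permutation p of 0.026 and 0.034. With the 2 libraries farthest from the median of the first gene left out, Cxcl3 with Cxcl6 fell to 0.34 and S100a9 with Il1r2 to 0.32, both with an adjusted permutation p of 0.12, and the other 10 pairs still passed by Pearson's r. All values of a library share its depth and its piece of lung.

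**Figure D5:**
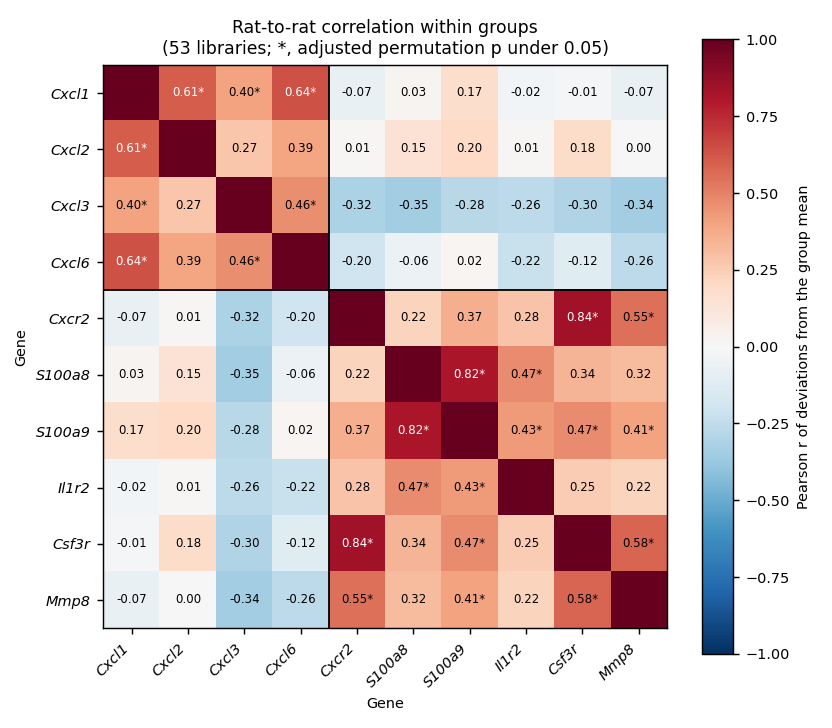
Pearson correlation (colour and number) of each pair of the 10 genes over 53 libraries, after the mean of each group was removed. A star marks an adjusted permutation p under 0.05, and black lines part the chemokine genes from the neutrophil genes: 4 of 6 pairs in the upper left and 8 of 15 in the lower right carry a star, and 0 of the 24 pairs between the sets do.

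Genes whose difference from the air mean of the run went most closely with each member over the 53 libraries were found by Pearson's r, as a description. They share dose groups with the members, so a high r is common. For Cxcl1 they were Lcn2 (r = 0.955) and C3 (0.948), for Cxcl2 Lcn2 (0.911) and C3 (0.904), and for Cxcl6 Sod2 (0.942) and Noxo1 (0.937). For the row labelled Cxcl3 they were Rmdn2 (0.942) and Pigr (0.94), which encodes the receptor that carries immunoglobulin A across epithelium. S100a8 and S100a9 both went most closely with Il1b (0.868 and 0.888), then with H2afz (0.822) and Chi3l1 (0.87). Il1r2 went with Slc16a3 (0.904) and with Ccl22 (0.888), a chemokine of dendritic cells and macrophages. Cxcr2, Csf3r and Mmp8 had Ifit1lb among their closest 2 genes (r of 0.831, 0.804 and 0.692). Tmem154 (0.787) was the other for Cxcr2 and Cx3cr1 (0.667) for Mmp8.

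Cytokines that induce these chemokines or drive granulocyte production were listed as 14 genes, of which 7 passed the filter and 3 rose in run 180. Il1b, the gene of interleukin-1 beta, rose 2.02-fold, from 18.8, 21.2 and 33.6 CPM in air (lowest, median and highest) to 38.7, 42.6 and 65.7 (adjusted p = 1.8e-06). It also rose in runs 090 (adjusted p = 0.00041) and 022 (0.0012). Il1a and Csf2, which encodes GM-CSF, rose by 0.30 and 0.59 on the log2 scale in run 180. Il6, Tnf, Csf3 and Il17a were too low to test, with at most 15, 32, 2 and 1 reads in any of the 53 libraries. Among 12 feedback regulators and targets of NF-kB, 8 rose and 0 fell in run 180, led by Sod2 (2.64-fold, adjusted p = 4.2e-20), which encodes the mitochondrial superoxide dismutase, and Zc3h12a (2.12-fold), which encodes an RNase that degrades cytokine transcripts. In runs 090, 045, 022 and 011, 6, 4, 6 and 0 of them rose, and 0 fell. Nfkbia, another of the 12, passed in no run and was at -0.55, -0.62 and -0.40 on the log2 scale in runs 045, 022 and 011. Of 3 other tested chemokine and chemokine receptor genes (Pf4, Ackr1 and Cxcr1), Pf4 and Ackr1 rose in run 180 by 0.80 and 0.48 on the log2 scale. Cxcr1 passed in no run and was at -0.37, -0.53, -0.14 and 0.01 in runs 090, 045, 022 and 011. From the same list, Cxcl5 had no row in the count table and Ppbp did not pass the filter. Il1rn, which encodes the interleukin-1 receptor antagonist, rose by 1.02 on the log2 scale (adjusted p = 3.6e-12) and Il1r1 by 0.23, the 2 of 6 genes in the interleukin-1 receptor list that passed. In the list of colony-stimulating factor genes and receptors, Csf2rb (0.93), Csf1 (0.79) and Csf2ra (0.34) rose and Il3ra fell by 0.21, of 5 tested.

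The adhesion molecules that let neutrophils leave vessels changed both ways in run 180: of 8 genes, Sele (5.45-fold), Selp (2.76-fold) and Vcam1 rose, and Icam2, Pecam1 and Esam fell. Icam1 was at -0.02 on the log2 scale (adjusted p = 0.86). Neutrophil genes outside the 10 did not move as a block. Of 11 tested genes for secondary and tertiary granules, Cd177 (log2 2.73), Lcn2 (2.57), Hp (1.04) and Mmp25 (0.97) rose, Chit1 fell by 0.41, and 6 did not pass, among them Mmp9 at 0.24, Camp at -0.07 and Ngp at -0.43. Lung epithelium expresses Lcn2 and Hp too. Of 15 tested surface receptors and adhesion genes of neutrophils, 9 rose in run 180, with Itgam (2.45-fold), Trem3 (1.85-fold), Clec4e and Ptafr in the lead and Trem1 at 0.75 on the log2 scale. In runs 090, 045, 022 and 011 the counts were 4, 2, 1 and 0. Fpr1 and Fpr2, the formyl peptide receptors, were too low to test, with at most 12 and 8 reads in a library. Of 6 subunits of the phagocyte NADPH oxidase, Ncf4 and Cyba rose by 0.61 and 0.34. Alox5 and Lta4h, which make leukotriene B4, fell by 0.27 and 0.25, the 2 of 7 that passed in a list of leukotriene and S100 genes. Of 8 other tested matrix metalloproteinase and inhibitor genes, Mmp12 (log2 2.49), the macrophage elastase, and Timp1 (0.86) rose.

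Genes of primary granules, made in bone marrow precursors, stood close to 0. Mpo had at most 2 reads in any of the 53 libraries, Elane at most 3 and Ctsg at most 2, and they were at 0 in 34, 26 and 50 libraries. Prtn3, the 1 gene of this list that passed the filter, was at -0.46 on the log2 scale in run 180 (adjusted p = 0.45). In runs 090, 045, 022 and 011 it was at 0.63, 0.83, 0.72 and -0.70, and none of these passed (adjusted p of 0.32, 0.28, 0.2 and 1). The summed level of the 5 genes of the list ran from 0.407 to 0.867 CPM in air_180 and from 0.247 to 0.851 in MWCNT_180. Its median was 0.568, 0.594, 0.503 and 0.82 CPM in air and 0.917, 1.03, 0.981 and 0.55 CPM in exposed rats of runs 090, 045, 022 and 011.

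Markers of other cells that could carry the same genes moved as well. Of 8 tested monocyte markers, 5 rose in run 180 (Cd14, Cx3cr1, Vcan, Ly86 and Lyz2, by 0.35 to 0.78 on the log2 scale), and 2, 1, 1 and 0 in runs 090, 045, 022 and 011. Their summed level was 15872 to 24328 CPM in air_180 and 21987 to 24639 in MWCNT_180. Alveolar macrophage markers split, with Atp6v0d2 (1.61), Itgax (0.85) and Cd68 (0.67) up and Siglec1, Pparg and Car4 down of 8 tested, and a summed level of 516 to 730 CPM in air_180 and 574 to 647 in MWCNT_180. Of 3 tested eosinophil markers, Ccr3 (1.07) and Siglec8 (0.31) rose and Alox15 fell by 1.93, with a summed level of 63.3 to 72.4 CPM in air_180 and 48.1 to 65.3 in MWCNT_180. Epx, a defining eosinophil gene, was at 0 in 34 of 53 libraries. Platelet markers had 1 rise (Pf4) and 1 fall (Gp9) of 4 tested, and their sum ran from 21.6 to 32.5 CPM in air_180 and from 30.7 to 37.5 in MWCNT_180. Of 8 red cell markers, 0 passed in any run, and the sum ran from 2923 to 4229 CPM in air_180 and from 2111 to 3342 in MWCNT_180. Lung markers had 2 rises and 3 falls of 8 in run 180, and 1 of 12 liver markers rose, Tf. The part of these cells in the changes of the 10 genes was not tested.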

How the data were processed

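Lung RNA of 60 rats was sequenced from stranded mRNA libraries made with 12 cycles of PCR, per the labels' protocols. The authors deposited raw gene counts for each library, in 30045 rows by gene symbol. The submitters' processing notes name bcl2fastq 2.19, Trimmomatic 0.35, HISAT2 2.1.0, Cufflinks, SAMtools 1.8 and HTSeq 0.11.2. Build, annotation and strand setting were not given in the sources used here. In the symbol column, 27 entries were spreadsheet dates and 2 symbols were repeated.

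The 53 libraries not labelled as outliers went into edgeR 4.0.16 under R 4.3.3 (TMM scaling, filterByExpr with a minimum count of 10, robust quasi-likelihood F-test, 1 model over 10 groups, two-sided). The 15995 genes tested held 99.932% of the counts. Contrasts were MWCNT minus air within a run, a slope over log2 dose, and differences among runs and among air groups. P-values were adjusted by Benjamini-Hochberg over all genes tested, with a threshold of 0.05, and the SE is the log2 fold change divided by the square root of F. Correlations used log2(CPM + 0.5) and 100000 two-sided permutations within groups. Libraries of a group differed from each other by a chi-square per degree of freedom of at least 2.52, so none was taken for a copy. Each library was taken as 1 rat, and replicates were numbered in accession order and not paired across groups.

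The members, the 19 gene lists and the tests were chosen with earlier results of these data known. The genes named are the members, up to 4 called genes of each list with the largest change in run 180, a fixed group of inflammation genes (Il1b, Il1rn, Tnf, Il6, Csf3, Csf2, Il17a, Mpo, Elane, Lcn2, Mmp9, Mmp12, Fpr1, Trem1, Cd14, Alox15, Epx, Icam1 and Sele) and the 2 genes most like each member, of which 1 is not reported here. Others were named after their values were seen. Alternatives were all 60 libraries, 57 without the liver-like ones, each run fitted alone, DESeq2 1.42.0, DESeq2 size factors, limma 3.58.1 (voom), no filter, a filter of 1 CPM in 10 libraries, a linear dose scale, the slope without 1 run, and each library left out in turn. The alternatives for the air groups and the left-out libraries for slope and run difference were added after the data were seen. The edgeR script was run on simulated counts for the contrast of run 180 alone, with an outcome not reported here. That check does not bear on the other runs or on the slopes.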

Additional observations from a re-analysis of the deposited data

Results flagged for a closer look

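Each of the 10 genes was examined in each group of 4 to 6 rats, which gave 90 sets. In 6 of them, 1 rat stood apart from the others of its group by more than Dixon's 95% critical value. Chance marks about 1 in 20 sets, but the sets share rats and are not independent. Cxcl6 stood at 17.6 CPM in MWCNT_090 replicate 3, where the next rat had 12.7. S100a8 and S100a9 were both highest in MWCNT_022 replicate 5, at 62.6 and 146.8 CPM against 41.5 and 98.5 in the next rat. S100a9 was 97.9 CPM in air_180 replicate 3 (next 70.1). Cxcl2 was 3.55 CPM in air_180 replicate 6 (next 2.46). Cxcl3 was 1419 CPM in MWCNT_180 replicate 5 (next 1283).

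The MWCNT effect differed among the 5 runs, by the edgeR test of the difference itself, for Cxcl1 (adjusted p = 0.04), Cxcl6 (adjusted p = 0.0012) and Il1r2 (adjusted p = 0.0013).

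Among exposed libraries labelled as outliers and left out above, 2 held members above every air rat of their run. MWCNT_180 replicate 1 had Cxcl1 at 50.4 CPM, Cxcl2 at 8.37, Cxcl3 at 1325, Cxcl6 at 15.6, Cxcr2 at 19.2, S100a9 at 122, Il1r2 at 9.4, Csf3r at 51.8 and Mmp8 at 10.2. MWCNT_011 replicate 2 had Cxcl1 at 27.1 CPM and Cxcl6 at 6.29, where the highest air rats had 20.9 and 5.71. How many of all genes lay above every air rat in these 2 libraries was not counted. Liver markers took 0.177% of the counts in MWCNT_180 replicate 1 and 0.278% in MWCNT_011 replicate 2. In the libraries kept they took at most 0.0508%.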

How the results depend on the processing

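The calls of Cxcl1, Cxcl2, Cxcl6 and Il1r2 in runs 180, 090, 045 and 022 held under each alternative and each left-out library, except in places with all 60 libraries. That set adds the 7 libraries labelled as outliers, 3 of them with a liver profile. With it the genes called were 0, 163, 5122 and 614 in runs 011, 022, 090 and 180, against 4, 1087, 1775 and 3660. Members called were then 2, 2 and 4 in runs 022, 090 and 180, 1 for the difference among runs and 0 for the slope, and the log2 fold changes of Csf3r, Cxcl3 and Mmp8 in run 090 turned to -0.086, -0.252 and -0.186. All 24 pairs of a chemokine with a neutrophil gene and all 15 neutrophil gene pairs were then called correlated. With 57 libraries, which leave out the 3 with a liver profile, 68 results of single members kept their call and direction. Of the others, 1 call was lost, S100a8 in run 180, and 1 was gained, Cxcl3 in run 045 (edgeR adjusted p = 0.031). Fitted alone, run 022 had 341 genes called and run 090 had 5 members called. With limma voom, runs 045 and 090 had 1904 and 3226 genes called and 5 members passed for the difference among runs. Slopes that passed were 1 without run 011 and 2 without run 180. For the difference among runs and the slope, shares of all genes called under the alternatives are not given here. The member counts under them therefore have no background beside them. Over left-out libraries, the genes called ranged from 2 to 5 in run 011, 735 to 2919 in run 022 and 377 to 811 in run 045, and the slopes called from 5 to 8. In run 011 the log2 fold changes then ranged from -0.07 to 0.112 for Csf3r, -0.007 to 0.329 for Cxcl6 and -0.042 to 0.201 for Mmp8. The call of S100a8 in run 180 was also lost with 57 libraries or the run alone (adjusted p = 0.05 for both), and that of S100a9 in run 022 with the run alone (0.14). Other calls were gained: S100a8 passed in run 090 with limma voom (6e-04), DESeq2 (0.037) and the stricter filter (0.049), in run 022 with limma voom (0.022) and DESeq2 (0.044), and in run 045 with limma voom (0.041) and the run alone (0.0017). S100a9 passed in run 045 with limma voom (0.003), DESeq2 (0.039) and the run alone (0.00066). In run 090, Csf3r lost its call with the run alone (0.11) and with no filter (0.053), Cxcl3 (0.088) and S100a9 (0.056) with the run alone. Cxcl1 lost its difference among runs with no filter (0.074). The cause of these shifts was not tested. No paired analysis was possible because replicate numbers follow accession order. At 17 to 187 reads of Cxcl2 and 8 to 288 of Cxcl6 per library, counting error limits small differences, and 3 air libraries limit run 045.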
